A study of Mus musculus with 32 samples.

Results

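The genes of 10 immediate-early transcription factors were followed in 2 lines of mouse blood progenitors given interferon gamma, a Toll-like receptor ligand, or both. They are the FOS-family genes Fos, Fosb and Fosl2, the JUN-family genes Jun, Junb and Jund, the stress-induced Atf3, and the early growth response genes Egr1, Egr2 and Egr3. Members were listed by symbol, with earlier results of these data known, so the list is not independent of the data. The gene identifiers of the count tables (version ignored) were matched to mouse GENCODE names, and 10 of 10 members were found among 55487 rows. Of these, 9 passed the filter on low counts and were tested. Egr3 did not pass and is described by its counts.

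The cells were fetal liver progenitors immortalized with ER-HOXB8, a HOXB8 fusion protein that holds myeloid progenitors in cycle while estrogen is present, and every group was grown with estradiol, SCF-conditioned medium and G418. The line hi-77+/+, called wild-type here, keeps the -77 enhancer of the transcription factor gene Gata2, and the line hi-77-/-, called mutant here, is labelled Gata2 -77-/-. Each line was treated for 4 h with vehicle, IFNg at 1 ng/ml, the synthetic lipopeptide Pam3CSK4 (a TLR2 agonist) at 100 ng/ml, or both, giving 8 groups of 4 total-RNA libraries. Each genotype is 1 cell line, and nothing in the labels tells if a group's 4 libraries stem from separate cultures, so the p-values reflect spread among libraries that may be technical replicates.

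Immediate-early genes are switched on by signals that already present proteins can carry, without new protein synthesis, and their transcripts are short-lived. All libraries here are from 4 h, so changes that had come and gone before then were not measured. FOS and JUN proteins pair through leucine zippers to form AP-1, and ATF3 joins the same dimer network, often as a repressor, and is known in macrophages for limiting cytokine genes after Toll-like receptor signals. EGR proteins are zinc finger factors, held in check by the co-repressors NAB1 and NAB2, and EGR1 and EGR2 are known for promoting the macrophage fate of myeloid progenitors over the granulocyte fate.

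The libraries held 44182690 to 71424183 counts and 17416 to 20978 genes with a count. Gata2 itself stood at 43.4 ± 8.27 CPM (TMM-scaled; mean ± SD, n = 4) with vehicle in wild-type libraries and at 7.52 ± 0.679 in mutant ones. All 8 progenitor markers were present in every library, Kit for example at 214 to 338 CPM. By edgeR's quasi-likelihood test with vehicle, Cd34, Flt3, Ptprc and Myb were higher in mutant libraries and Kit, Mpo and Cebpa lower. These 4 and 3 of 8 stand beside 24.4% of all tested genes higher and 29.3% lower. The log2 differences ran from -0.50 ± 0.05 (Cebpa) to 0.91 ± 0.04 (Flt3), and Spi1 did not pass. Of the 24 markers of other cell types, Cd3e, Ncr1, C1qa, Col3a1 and Ttr had no count, and 6 had enough counts to be tested. The macrophage markers Adgre1 and Csf1r went opposite ways. Adgre1 was lower in mutant libraries in all 4 conditions (6.01 ± 0.165 against 20.9 ± 1.73 CPM with vehicle), and Csf1r was higher in all 4 (1.32 ± 0.206 against 0.162 ± 0.105) and rose with Pam3CSK4 in both lines, by 2.85 ± 0.16 on the log2 scale in mutant and 3.15 ± 0.25 in wild-type libraries. The endothelial gene Pecam1, which progenitors also express, was higher in mutant libraries in all 4 conditions (4.73 ± 0.169 against 2.26 ± 0.137 with vehicle). With both agonists it stood at 8.34 ± 0.849 CPM in mutant and 3.22 ± 0.371 in wild-type libraries. Its wild-type change with Pam3CSK4 did not pass edgeR's quasi-likelihood test (log2 change 0.21 ± 0.11, adjusted p = 0.167). The rarest were the stromal gene Col1a2, lower in mutant libraries in all 4 conditions, the hepatocyte gene Afp, higher in all 4, and the NK gene Klrb1c, higher with Pam3CSK4 and with both, each with a highest library value under 0.6 CPM. The part of these markers in the results below was not tested. Mitochondrial and small structural RNA took 24.0 ± 4.17% of counts in wild-type vehicle libraries but 13.6 ± 0.612% to 15.9 ± 1.87% in the other wild-type groups, and 21.1 ± 3.89% to 27.3 ± 2.12% in the mutant groups. A fit that adjusts for this share was therefore run as well, and its value stands beside each call that it changed.

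Fold changes are log2 values ± SE from edgeR's quasi-likelihood test on all 32 libraries, with p-values adjusted by the Benjamini-Hochberg method over the 14869 genes tested in each comparison, and a gene is called below an adjusted p of 0.05. The 3 treatment comparisons of a line share its 4 vehicle libraries, and the comparisons between lines under vehicle share them too.

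Atf3 and Egr2 were the members that rose most under IFNg, and Fos fell with it in the wild-type line. The 120 bases before their RefSeq starts (GRCm38.p6, the same assembly as mm10) are shown because each holds the half-site of the cyclic AMP response element, TGACGT on either strand, in capitals; the Egr2 stretch also holds a CArG box, the core of the serum response element, in capitals ahead of the half-site. The stretches lie at chr1:191183334-191183453 on the minus strand, chr10:67537749-67537868 on the plus strand and chr12:85473770-85473889 on the plus strand.
Atf3: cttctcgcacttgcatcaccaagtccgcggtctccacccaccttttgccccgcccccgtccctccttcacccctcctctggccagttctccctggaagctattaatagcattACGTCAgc
Egr2: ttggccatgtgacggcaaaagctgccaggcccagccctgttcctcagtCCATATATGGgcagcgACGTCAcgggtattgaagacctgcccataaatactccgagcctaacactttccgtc
Fos: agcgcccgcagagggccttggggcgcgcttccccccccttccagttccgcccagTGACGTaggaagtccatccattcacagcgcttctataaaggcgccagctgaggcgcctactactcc

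The half-site began at -8 from the Atf3 start shown, at -56 from the Egr2 start shown and at -66 from the Fos start, counting the base before the start as -1. The table holds 5 starts for Egr2, and the one shown was picked because its stretch holds the half-site: 2 of the 5, both upstream of it, have no half-site in their 250 bases, and the 2 starts just downstream have the same one at -57 and -117. Both strands of the 250 bases before each start were searched in the table, which held entries for Atf3, Egr2, Fos, Fosb, Fosl2, Jun, Junb and Jund (8 of 10 members). TGACGT was present in 6.46% of 32817 promoters in the table and the CArG box in 1.47%. The full element TGACGTCA (1.55% of promoters), the AP-1 site TGACTCA (4.46%), the EGR site GCGTGGGCG (0.536%) and the STAT-binding GAS motif TTCNNNGAA (7.01%) had no match in the windows of these 8 genes, which says only that those letters are not there. The Jund window (70697489 to 70697738) ends well before the gene start at 70698949 given below, and all 250 bases of the Fosl2 window are annotated exon. The Atf3 start shown lies inside the gene span of 191170296 to 191218039 given below, not at its upstream end. The half-site was added to the search after the sequences had been seen. It had no match in the windows of Fosb, Fosl2, Jun, Junb and Jund, of which Fosb and Jun also fell with IFNg in the wild-type line. The kB motif GGGRNNYYCC (7.25% of promoters) matched in the windows of Fos, Fosb and Fosl2 and in an Egr2 window other than the one shown. Any link of these letters to the responses was not tested. The Fos stretch also held TATAAA, which 12.4% of promoters hold.

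Levels of different members are compared per kilobase of effective transcript length, as CPM per kilobase. In unstimulated cells Junb, an AP-1 subunit that often opposes JUN, was the highest of the 10 members in both lines, at 7.43 ± 2.77 in wild-type and 4.39 ± 0.737 in mutant libraries (SD, n = 4). Fos ranked 3 in wild-type (2.32 ± 0.320) and 2 in mutant vehicle libraries (1.35 ± 0.258), each within 1 SD of Jund, and Atf3 ranked 9 in both (0.0652 ± 0.0548 and 0.0756 ± 0.0478). Egr3 was last in all 8 groups.

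Stimulation reordered this list. With IFNg the highest member was Egr2, at 7.52 ± 0.886 CPM per kilobase in wild-type and 8.40 ± 1.05 in mutant libraries. With both agonists Atf3 moved to rank 1 in mutant libraries (11.4 ± 0.0587), within 1 SD of Egr2 (11.2 ± 0.460) and Junb (10.3 ± 2.66), and to rank 3 in wild-type ones (4.54 ± 0.578), below Egr2 (11.3 ± 0.506) and Junb (10.0 ± 1.53). The ranks were the same in all 80 cases with 1 common length per gene or with the deposited TPM values.

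**Figure D1:**
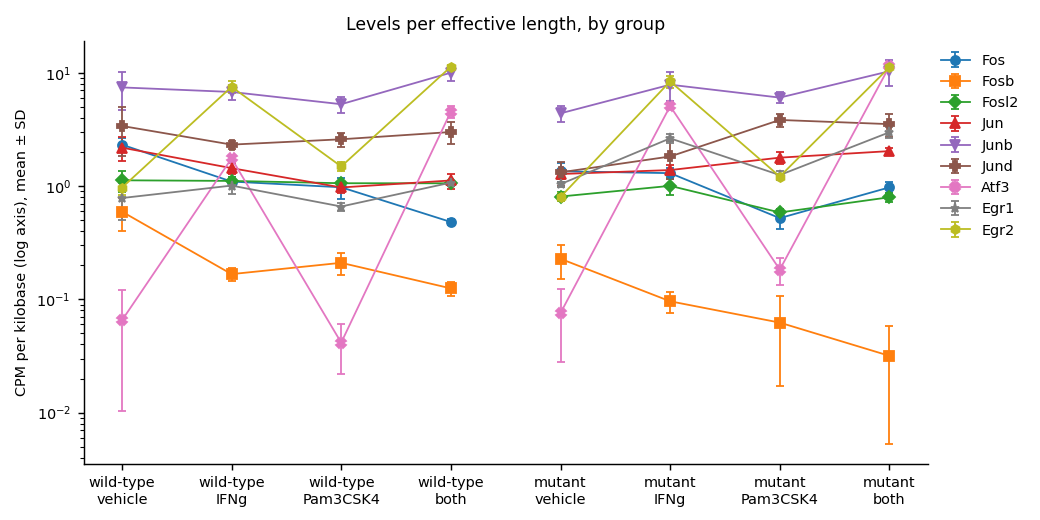
Level of the 9 tested members in each group, as CPM per kilobase of effective length on a log axis (mean and SD of 4 libraries). The lines of Atf3 and Egr2 climb in the IFNg and both-agonist groups of both lines, Fosb stays near the bottom, and Junb stays near the top throughout.

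Atf3 (chromosome 1, 191170296 to 191218039, minus strand) was close to silent at 4 h in libraries without IFNg. In wild-type vehicle libraries it read 0.0788, 0, 0.224 and 0.143 CPM, and with IFNg 3.23, 3.06, 2.77 and 3.04. In mutant vehicle libraries it read 0.227, 0.150, 0.0832 and 0.0482 CPM, and with IFNg 9.34, 8.20, 8.45 and 9.18. With both agonists it reached 7.38, 7.18, 7.33 and 9.35 CPM in wild-type and 19.5, 19.8, 19.9 and 19.3 in mutant libraries. Every library with IFNg, alone or combined, lay above every library without it, and the mutant libraries lay above the wild-type ones in both conditions.

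The log2 fold change of Atf3 under IFNg was 4.73 ± 0.27 in wild-type (adjusted p = 2.89e-15) and 6.10 ± 0.24 in mutant libraries (adjusted p = 9.11e-20). Under both agonists it was 6.10 ± 0.25 and 7.26 ± 0.23 (adjusted p = 2.57e-19 and 2.11e-22). These sizes rest on vehicle groups with 24 and 29 counts over 4 libraries, so the denominators are imprecise. Without wild-type vehicle library 3, which had the highest of the 4 values, the wild-type changes were 5.47 for IFNg and 6.84 for both agonists, and over all left-out libraries they ran from 4.27 to 5.47 and from 5.64 to 6.84. In bulk RNA, more cells with Atf3 transcripts and more transcripts per cell cannot be told apart, here and for each gene below.

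Pam3CSK4 alone gave 0.119, 0.0365, 0.0545 and 0.0728 CPM of Atf3 in wild-type libraries, overlapping vehicle (log2 fold change -0.60 ± 0.54, adjusted p = 0.468). In mutant libraries it gave 0.341, 0.190, 0.401 and 0.310 CPM, an increase by the test (1.31 ± 0.38, adjusted p = 0.0104) although the highest vehicle library overlapped the lowest treated one. That call ended without mutant vehicle library 4 (1.02 with an adjusted p of 0.0553).

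Between lines, no difference in Atf3 passed the test with vehicle (log2 difference 0.17 ± 0.48, 95% interval -0.82 to 1.15, adjusted p = 0.799). It was higher in mutant libraries with IFNg by 1.54 ± 0.15 (adjusted p = 3.02e-10), with Pam3CSK4 by 2.08 ± 0.43 (adjusted p = 8.56e-05) and with both by 1.33 ± 0.14 (adjusted p = 1.49e-09). As linear ratios these were 2.91-fold, 4.22-fold and 2.52-fold.

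Whether the Atf3 response itself differed between lines was less certain than the level. The difference of responses was 1.38 ± 0.52 for IFNg (adjusted p = 0.204) and 1.17 ± 0.52 for both agonists (adjusted p = 0.127), neither past the threshold. Without wild-type vehicle library 2, where Atf3 had no count, they were 1.83 with an adjusted p of 0.0143 and 1.62 with an adjusted p of 0.00746, and without mutant vehicle library 1 the latter was 1.66 with an adjusted p of 0.0399. For Pam3CSK4 the difference was 1.91 ± 0.66 (adjusted p = 0.0312). This call ended with the structural RNA covariate (1.90 with an adjusted p of 0.0952) and without any 1 of wild-type vehicle libraries 3 and 4, wild-type Pam3CSK4 libraries 2 and 3, mutant vehicle libraries 3 and 4 or mutant Pam3CSK4 library 3, the smallest of these being 1.17 with an adjusted p of 0.235 without wild-type vehicle library 3.

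**Figure D2:**
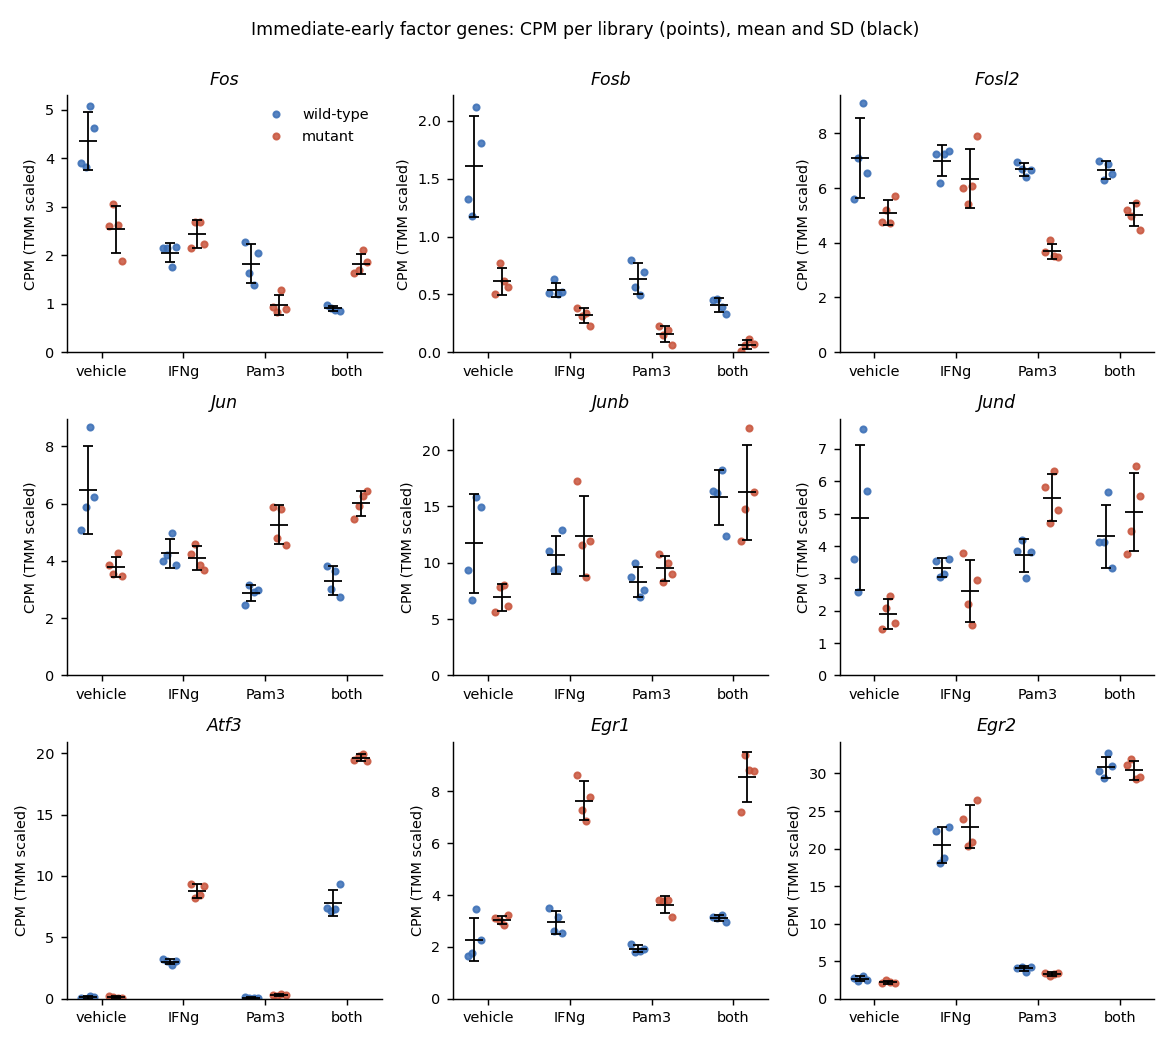
CPM of the 9 tested members in each of the 32 libraries (points; wild-type blue, mutant red), with the mean and SD of each group in black; "both" is IFNg with Pam3CSK4. Atf3 and Egr1 show mutant libraries above wild-type ones wherever IFNg was given, Egr2 shows the lines together, and Fosb falls in every treated group.

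Egr2 (chromosome 10, 67535475 to 67542188, plus strand), a zinc finger factor of macrophage and lymphoid cells, rose with IFNg to nearly the same level in both lines. In wild-type libraries it went from 2.72, 2.31, 3.09 and 2.45 CPM with vehicle to 22.3, 18.1, 18.8 and 22.8 with IFNg. In mutant libraries it went from 2.11, 2.44, 2.18 and 2.04 to 23.9, 20.4, 20.8 and 26.5 CPM. With both agonists the values were 30.3, 29.4, 32.7 and 30.9 in wild-type and 31.2, 31.9, 29.2 and 29.5 in mutant libraries. The treated groups were clear of vehicle in each line, and the lines overlapped in both treatments.

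The log2 fold change of Egr2 was 2.95 ± 0.09 in wild-type and 3.39 ± 0.09 in mutant libraries with IFNg (adjusted p = 9.03e-24 and 1.78e-25), and 3.54 ± 0.09 and 3.80 ± 0.09 with both agonists (adjusted p = 2.59e-26 and 3.28e-27). Pam3CSK4 alone raised it by a smaller amount, 0.61 ± 0.10 in wild-type (adjusted p = 0.000106) and 0.60 ± 0.11 in mutant libraries (adjusted p = 6.63e-05), again with no overlap with vehicle.

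The responses of Egr2 did not pass the test of a difference between lines, at 0.44 ± 0.14 for IFNg (adjusted p = 0.0956), -0.01 ± 0.15 for Pam3CSK4 (adjusted p = 0.978) and 0.27 ± 0.13 for both (adjusted p = 0.186). The first passed without wild-type IFNg library 4 (0.50 with an adjusted p of 0.0477), without wild-type vehicle library 2 (0.51 with an adjusted p of 0.0427) and with the structural RNA covariate (0.49 with an adjusted p of 0.0461). With both agonists the difference in level between lines was -0.02 ± 0.07, with a 95% interval of -0.17 to 0.14.

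Small differences in the level of Egr2 between lines were not stable. It was lower in mutant libraries with vehicle (-0.28 ± 0.11, adjusted p = 0.0318) and with Pam3CSK4 (-0.30 ± 0.10, adjusted p = 0.01), but with the structural RNA covariate these became -0.25 with an adjusted p of 0.0516 and -0.10 with an adjusted p of 0.601. The vehicle call also ended without any 1 of wild-type vehicle libraries 1 and 3 or mutant vehicle libraries 1, 3 and 4, at -0.19 with an adjusted p of 0.192 without wild-type vehicle library 3. The IFNg difference of 0.16 ± 0.08 (adjusted p = 0.0808) did not pass, but it did with the covariate (0.24 with an adjusted p of 0.014) and without any 1 of mutant IFNg libraries 2 and 3 or wild-type IFNg libraries 1 and 4, at 0.22 with an adjusted p of 0.024 without the last.

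Egr1 (chromosome 18, 34859823 to 34864984, plus strand), the founding member of its family and a classic marker of growth factor and MAP kinase signalling, rose with IFNg in the mutant line. Mutant libraries read 3.10, 3.01, 2.85 and 3.21 CPM with vehicle and 8.62, 7.29, 6.86 and 7.76 with IFNg. Wild-type libraries read 1.64, 1.77, 3.45 and 2.26 with vehicle and 3.48, 2.62, 3.15 and 2.55 with IFNg. The mutant IFNg libraries lay above all others of these 4 groups, while the wild-type groups overlapped.

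The IFNg response of Egr1 was 1.32 ± 0.14 in mutant libraries (adjusted p = 7.24e-10) and 0.36 ± 0.15 in wild-type ones (adjusted p = 0.0547), and the difference between them was 0.97 ± 0.20 (adjusted p = 0.00452). The wild-type value passed without wild-type IFNg library 2 (0.41 with an adjusted p of 0.0458), wild-type IFNg library 4 (0.42 with an adjusted p of 0.0355) or wild-type vehicle library 3 (0.65 with an adjusted p of 0.000101), the last having the highest vehicle level. It also passed with DESeq2 (0.35 with an adjusted p of 0.0449) and with no low-count filter (0.36 with an adjusted p of 0.0459). With both agonists the libraries read 3.15, 3.12, 3.21 and 2.95 CPM in wild-type and 7.19, 9.40, 8.83 and 8.78 in mutant cells. That response was 0.44 ± 0.14 in wild-type (adjusted p = 0.0136) and 1.49 ± 0.13 in mutant libraries (adjusted p = 2.08e-11), and the difference was 1.05 ± 0.20 (adjusted p = 0.000264).

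Pam3CSK4 alone gave 2.12, 1.81, 1.85 and 1.93 CPM of Egr1 in wild-type and 3.80, 3.75, 3.82 and 3.14 in mutant libraries, each overlapping its vehicle group. The log2 fold changes were -0.25 ± 0.15 (adjusted p = 0.254) and 0.26 ± 0.14 (adjusted p = 0.2). The difference between lines, 0.50 ± 0.21 (adjusted p = 0.0672), passed only when wild-type vehicle library 1 (0.63 with an adjusted p of 0.0172), library 2 (0.62 with an adjusted p of 0.0231) or libraries 1 and 4 together (0.68 with an adjusted p of 0.0221) were left out, or with DESeq2 (0.51 with an adjusted p of 0.0424).

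In level, Egr1 was higher in mutant than in wild-type libraries under every condition, by 0.41 ± 0.15 with vehicle (adjusted p = 0.0178), 1.38 ± 0.14 with IFNg (adjusted p = 7.91e-11), 0.91 ± 0.15 with Pam3CSK4 (adjusted p = 1.47e-06) and 1.46 ± 0.13 with both (adjusted p = 1.61e-11). The lines overlapped with vehicle and did not in the 3 treated conditions. The vehicle difference and the wild-type response to both agonists rest on which wild-type vehicle libraries are kept. Without library 1 they were 0.28 with an adjusted p of 0.102 and 0.31 with an adjusted p of 0.082. Without library 2 they were 0.30 with an adjusted p of 0.1 and 0.33 with an adjusted p of 0.0778, and without library 3 they were 0.70 with an adjusted p of 1.07e-05 and 0.73 with an adjusted p of 1.01e-05. The second of these was 0.48 with an adjusted p of 0.0752 with the structural RNA covariate.

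Egr3 (chromosome 14, 70077203 to 70082614, plus strand), a close relative of EGR2 known from lymphocytes, was close to absent, with 44 counts over all 32 libraries and at most 5 in any one. The group totals were 4, 2, 3 and 5 counts in wild-type libraries with vehicle, IFNg, Pam3CSK4 and both, and 2, 5, 10 and 13 in mutant ones. In CPM the 4 mutant Pam3CSK4 libraries lay above the 4 mutant vehicle libraries, and the groups overlapped in the other 9 comparisons of 2 groups. Mutant vehicle library 4 and mutant Pam3CSK4 libraries 1 and 3 each had 2 counts (0.0321, 0.0325 and 0.0349 CPM). That separation thus rests on library scaling. In the fit with no low-count filter, the largest Egr3 changes were 2.42 ± 1.11 with both agonists (adjusted p = 0.127) and 2.23 ± 1.14 with Pam3CSK4 (adjusted p = 0.285), both in the mutant line, and no difference in Egr3 passed at this depth.

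**Figure D3:**
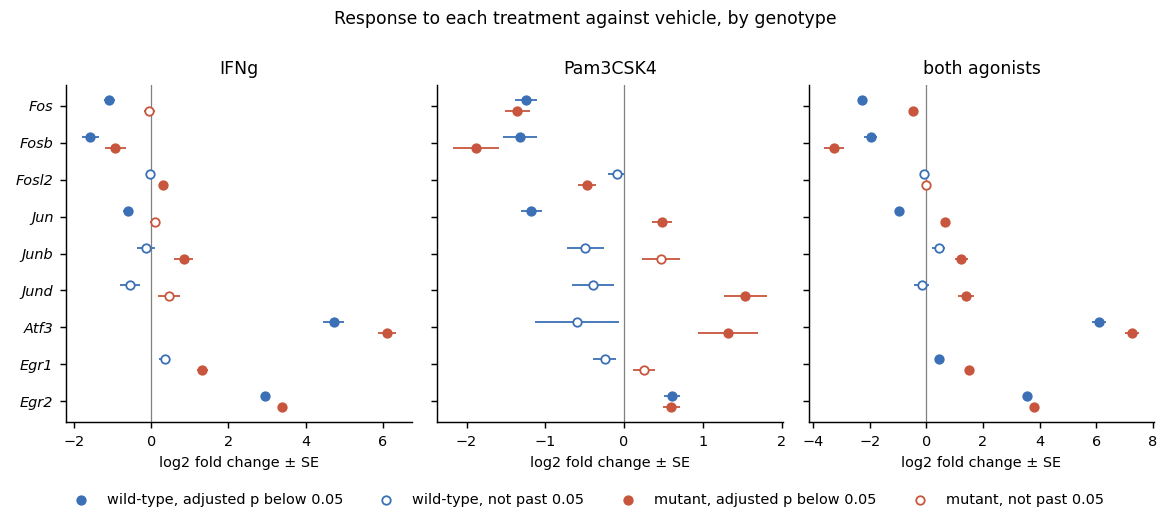
Log2 fold change ± SE of each tested member against vehicle in wild-type (blue) and mutant (red) libraries, by treatment; filled points are below an adjusted p of 0.05. Atf3 and Egr2 lie far to the right with IFNg and with both agonists, and Jun lies left of 0 in wild-type and right of 0 in mutant libraries with Pam3CSK4 and with both.

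The FOS genes encode the AP-1 subunits that cannot pair with each other and need a JUN partner. Fos (chromosome 12, 85473890 to 85477273, plus strand) was highest in unstimulated wild-type cells, at 3.90, 3.83, 5.08 and 4.62 CPM, clear of all other groups. It fell with each treatment of the wild-type line, to 2.15, 2.14, 1.77 and 2.16 with IFNg, 2.27, 1.63, 1.38 and 2.04 with Pam3CSK4, and 0.980, 0.908, 0.872 and 0.853 under both. The log2 fold changes were -1.09 ± 0.14, -1.25 ± 0.14 and -2.27 ± 0.15 (adjusted p = 1.65e-07, 9.36e-08 and 2.26e-14), the last about the sum of the other changes, with a departure from additivity of 0.07 ± 0.22 (adjusted p = 0.909).

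In the mutant line Fos followed another order. It read 2.60, 3.05, 2.61 and 1.88 CPM with vehicle and 2.16, 2.69, 2.68 and 2.23 with IFNg, overlapping, and the IFNg change of -0.05 ± 0.14 did not pass (adjusted p = 0.835, 95% interval -0.35 to 0.25). Pam3CSK4 lowered it to 0.926, 0.822, 1.27 and 0.886 CPM (-1.36 ± 0.16, adjusted p = 2.6e-08). With both agonists it read 1.64, 1.70, 2.11 and 1.85, a smaller fall from vehicle (-0.47 ± 0.15, adjusted p = 0.00854), and the departure from additivity was 0.93 ± 0.22 (adjusted p = 0.0138).

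The Fos response thus differed between lines for IFNg, by 1.04 ± 0.20 (adjusted p = 0.00252), and for both agonists, by 1.79 ± 0.21 (adjusted p = 1.52e-07), but not by the test for Pam3CSK4 (-0.11 ± 0.21, 95% interval -0.55 to 0.33, adjusted p = 0.756). In level, the mutant libraries were below the wild-type ones with vehicle (-0.79 ± 0.14, adjusted p = 1.04e-05) and Pam3CSK4 (-0.90 ± 0.16, adjusted p = 1.09e-05). With both agonists they were above them, by 1.01 ± 0.16 (adjusted p = 2.16e-06), with no overlap in any of these 3 conditions. With IFNg the lines overlapped (0.25 ± 0.15, adjusted p = 0.15).

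Fosb (chromosome 7, 19302696 to 19310051, minus strand), whose protein is known in neurons and in growth factor responses, was the lowest tested member per kilobase in 5 of the 8 groups. Wild-type libraries read 1.32, 1.18, 2.12 and 1.81 CPM with vehicle, 0.510, 0.633, 0.500 and 0.518 with IFNg, 0.801, 0.566, 0.491 and 0.691 with Pam3CSK4, and 0.447, 0.463, 0.393 and 0.330 under both. Mutant libraries read 0.503, 0.769, 0.616 and 0.562 with vehicle, 0.386, 0.315, 0.342 and 0.227 with IFNg, 0.227, 0.148, 0.192 and 0.0664 with Pam3CSK4, and 0.0149, 0.0607, 0.114 and 0.0686 under both. Each treated group lay below its vehicle group, and each mutant group lay below the wild-type group of the same treatment.

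Fosb fell by test in all 6 treatment comparisons, from -0.92 ± 0.26 with IFNg in the mutant line (adjusted p = 0.00552) to -3.26 ± 0.35 with both agonists there (adjusted p = 8.87e-10), the latter from 139 counts over 4 libraries to 14. Wild-type values were -1.57 ± 0.22, -1.32 ± 0.22 and -1.97 ± 0.23 for IFNg, Pam3CSK4 and both (adjusted p = 9.36e-07, 8.16e-05 and 1.39e-08), and the mutant Pam3CSK4 value was -1.88 ± 0.29 (adjusted p = 6.08e-06). The wild-type Pam3CSK4 call ended with the structural RNA covariate (-0.89 with an adjusted p of 0.265).

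The level of Fosb was lower in mutant libraries, with log2 differences of -1.40 ± 0.22 with vehicle, -0.75 ± 0.26 with IFNg, -1.95 ± 0.29 with Pam3CSK4, and -2.69 ± 0.37 under both (adjusted p = 1.74e-06, 0.0153, 4.24e-07 and 8.47e-08). The IFNg call ended without mutant IFNg library 4 (-0.63 with an adjusted p of 0.0565). The test of a different response passed for both agonists (-1.29 ± 0.44, adjusted p = 0.0431), against 0.65 ± 0.35 for IFNg (adjusted p = 0.41) and -0.55 ± 0.37 for Pam3CSK4 (adjusted p = 0.293). That call ended when any 1 of 11 of the 16 libraries was left out (wild-type vehicle 1 and 2, wild-type combination 1 to 3, mutant vehicle 2 to 4 and mutant combination 1, 2 and 4), reaching -0.96 with an adjusted p of 0.133 without mutant combination library 1.

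Fosl2 (chromosome 5, 32135801 to 32157842, plus strand), which encodes FRA-2, an AP-1 subunit that is made later and lasts longer than FOS, hardly moved in wild-type cells. Its mean level ranged from 6.67 ± 0.330 CPM with both agonists to 7.09 ± 1.47 with vehicle (SD, n = 4). The 3 log2 fold changes lay between -0.09 ± 0.11 with both agonists and -0.02 ± 0.11 with IFNg (adjusted p = 0.521 and 0.898). In mutant libraries it was 5.10 ± 0.459, 6.33 ± 1.08, 3.69 ± 0.279 and 5.02 ± 0.424 CPM with vehicle, IFNg, Pam3CSK4 and both. There it fell with Pam3CSK4 (-0.47 ± 0.11, adjusted p = 0.00193) with no overlap with vehicle, and rose with IFNg (0.31 ± 0.11, adjusted p = 0.0243), with overlap.

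The IFNg rise of Fosl2 ended with the structural RNA covariate (0.18 with an adjusted p of 0.218) and without mutant IFNg library 4 (0.19 with an adjusted p of 0.191), mutant vehicle library 1 (0.28 with an adjusted p of 0.0724) or mutant vehicle library 3 (0.28 with an adjusted p of 0.0767). Between lines Fosl2 was lower in mutant libraries with vehicle (-0.48 ± 0.11, adjusted p = 0.000297), Pam3CSK4 (-0.86 ± 0.11, adjusted p = 3.18e-08) and both (-0.41 ± 0.11, adjusted p = 0.00151; -0.16 with an adjusted p of 0.334 with the covariate). The IFNg difference of -0.15 ± 0.11 did not pass (adjusted p = 0.264) unless mutant IFNg library 4 was left out (-0.27 with an adjusted p of 0.0327). None of its 3 differences of response passed, the nearest being -0.38 ± 0.16 for Pam3CSK4 (adjusted p = 0.0703; -0.52 with an adjusted p of 0.00423 without wild-type vehicle library 3).

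Jun (chromosome 4, 95049034 to 95052222, minus strand), the founding AP-1 subunit, fell in the wild-type line and rose in the mutant one when Pam3CSK4 was present. Wild-type libraries read 5.08, 5.89, 8.65 and 6.22 CPM with vehicle, 3.99, 4.20, 4.99 and 3.85 with IFNg, 2.46, 3.14, 2.91 and 2.98 with Pam3CSK4, and 3.82, 3.03, 3.65 and 2.75 under both. Mutant libraries read 3.85, 3.55, 4.26 and 3.47 with vehicle, 4.23, 4.60, 3.86 and 3.68 with IFNg, 5.88, 4.81, 5.82 and 4.56 with Pam3CSK4, and 5.46, 5.90, 6.25 and 6.45 under both. In the wild-type line every treated library lay below every vehicle library. In the mutant line the Pam3CSK4 and both-agonist libraries lay above vehicle, and the IFNg libraries overlapped it.

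The log2 fold changes of Jun were -0.60 ± 0.13, -1.18 ± 0.13 and -0.96 ± 0.13 in wild-type libraries for IFNg, Pam3CSK4 and both (adjusted p = 0.00027, 4.02e-08 and 1.52e-07). In mutant libraries they were 0.11 ± 0.13, 0.48 ± 0.13 and 0.67 ± 0.13 (adjusted p = 0.556, 0.00471 and 4.51e-05). The difference of responses was 1.66 ± 0.18 for Pam3CSK4 (adjusted p = 3.14e-08) and 1.63 ± 0.18 for both (adjusted p = 3.36e-08). In level, Jun was lower in mutant than in wild-type libraries with vehicle (-0.78 ± 0.13, adjusted p = 2.94e-06), showed no difference past the threshold with IFNg (-0.06 ± 0.13, adjusted p = 0.72), and was higher with Pam3CSK4 (0.88 ± 0.13, adjusted p = 3.95e-07) and with both (0.85 ± 0.13, adjusted p = 5.76e-07).

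The other Jun calls were less firm. The IFNg difference of 0.72 ± 0.18 (adjusted p = 0.0309) ended when any 1 of 10 of the 16 libraries was left out (wild-type vehicle 3 and 4, wild-type IFNg 1, 2 and 4, mutant vehicle 1, 2 and 4 and mutant IFNg 1 and 2), at 0.54 with an adjusted p of 0.0834 without wild-type vehicle library 3. In the wild-type line the change with both agonists was less than the sum of the single changes, by 0.82 ± 0.18 (adjusted p = 0.026). This departure was 0.71 with an adjusted p of 0.177 with the covariate and ended without any 1 of wild-type combination libraries 1 and 3, wild-type IFNg libraries 1, 2 and 4 or wild-type Pam3CSK4 library 1, at 0.74 with an adjusted p of 0.0869 without combination library 1.

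Junb and Jund spread more between libraries of a group than the other members, with biological coefficients of variation of 22.3% and 25.3% against 7.69% to 15.9% for the other tested members. Junb (chromosome 8, 84974484 to 84978718, minus strand) overlaps at its end the abundant peroxiredoxin gene Prdx2 on the opposite strand, and the strand setting of the counting is not given in the sources used here, so reads of the overlap may be shared. Its level was 11.7 ± 4.39, 10.7 ± 1.66, 8.31 ± 1.31 and 15.8 ± 2.45 CPM in wild-type libraries with vehicle, IFNg, Pam3CSK4 and both, and 6.92 ± 1.19, 12.4 ± 3.55, 9.51 ± 1.09 and 16.3 ± 4.22 in mutant ones. Neighbouring groups in the order of the 8 means all overlapped.

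In wild-type libraries no Junb change passed, at -0.13 ± 0.23, -0.49 ± 0.24 and 0.44 ± 0.23 for IFNg, Pam3CSK4 and both (adjusted p = 0.711, 0.143 and 0.129). The Pam3CSK4 value passed without wild-type vehicle library 2 (-0.69 with an adjusted p of 0.0281), and the value for both passed without wild-type vehicle library 3 (0.63 with an adjusted p of 0.0383) and with the covariate (0.95 with an adjusted p of 0.0213). In mutant libraries Junb rose with IFNg (0.84 ± 0.24, adjusted p = 0.00765) and with both (1.23 ± 0.24, adjusted p = 0.000114), each clear of vehicle, and stood at 0.47 ± 0.24 with Pam3CSK4 (adjusted p = 0.18; 0.46 with an adjusted p of 0.0077 with only those groups in the fit).

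Between lines Junb was lower in mutant libraries with vehicle (-0.76 ± 0.24, adjusted p = 0.00926), a call that ended without wild-type vehicle library 3 (-0.57 with an adjusted p of 0.0627). No difference passed in the treated conditions, with 0.03 ± 0.22 for both agonists (95% interval -0.43 to 0.50). The difference of the Pam3CSK4 response was 0.96 ± 0.34 (adjusted p = 0.0372) but 0.42 with an adjusted p of 0.586 with the covariate, and it ended without any 1 of wild-type vehicle libraries 3 and 4, wild-type Pam3CSK4 libraries 3 and 4, mutant vehicle libraries 1 and 4 or mutant Pam3CSK4 libraries 1 and 3. The differences for IFNg (0.97 ± 0.33, adjusted p = 0.163) and both (0.79 ± 0.33, adjusted p = 0.104) passed only without wild-type vehicle library 2, at 1.17 with an adjusted p of 0.0388 and 0.99 with an adjusted p of 0.0259.

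Jund (chromosome 8, 70698949 to 70700616, plus strand), usually the steady member of the family, rose in the mutant line when Pam3CSK4 was present. Mutant libraries read 1.44, 2.07, 2.46 and 1.62 CPM with vehicle, 5.83, 4.72, 6.33 and 5.11 with Pam3CSK4, and 3.74, 4.46, 6.46 and 5.53 under both, the treated groups clear of vehicle. With IFNg they read 3.77, 2.21, 1.55 and 2.95, overlapping vehicle. Wild-type vehicle libraries spread from 2.58 to 7.63 CPM, and the means of the other wild-type groups, at 3.33 ± 0.288 (IFNg), 3.71 ± 0.507 (Pam3CSK4) and 4.31 ± 0.972 (both), lay within that range.

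The log2 fold changes of Jund in mutant libraries were 1.54 ± 0.28 for Pam3CSK4 (adjusted p = 0.000132), 1.41 ± 0.28 for both (adjusted p = 0.000153) and 0.46 ± 0.29 for IFNg (adjusted p = 0.243). In wild-type libraries none passed, at -0.55 ± 0.26, -0.39 ± 0.26 and -0.17 ± 0.26 for IFNg, Pam3CSK4 and both (adjusted p = 0.111, 0.311 and 0.634), although the first passed without wild-type vehicle library 2 (-0.77 with an adjusted p of 0.0175). The responses differed by 1.93 ± 0.38 for Pam3CSK4 (adjusted p = 0.000579) and by 1.58 ± 0.38 for both (adjusted p = 0.00548; 1.24 with an adjusted p of 0.0617 with the covariate). In level, Jund was lower in mutant vehicle libraries (-1.36 ± 0.28, adjusted p = 0.000169) and no difference passed with IFNg (-0.35 ± 0.28, adjusted p = 0.296), Pam3CSK4 (0.57 ± 0.26, adjusted p = 0.0588) or both (0.21 ± 0.26, adjusted p = 0.497). The Pam3CSK4 difference passed with DESeq2 (0.59 with an adjusted p of 0.0428), with RLE size factors (0.60 with an adjusted p of 0.0485) and with only those groups in the fit (0.59 with an adjusted p of 2.38e-05), but was 0.04 with an adjusted p of 0.958 with the covariate.

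**Figure D4:**
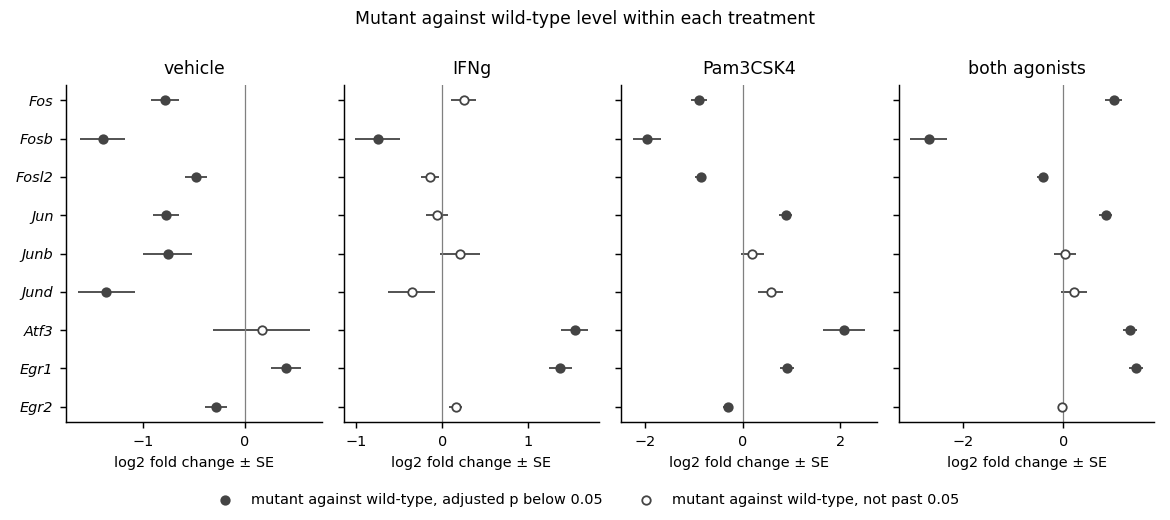
Log2 difference ± SE of each tested member, mutant against wild-type, within each treatment; filled points are below an adjusted p of 0.05. The 6 FOS and JUN points lie left of 0 with vehicle, while with both agonists Fos and Jun lie to the right beside Atf3 and Egr1.

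The members can also be read comparison by comparison, against the share of all 14869 tested genes called. In unstimulated cells 7 of the 9 tested members were lower in mutant libraries, where 29.3% of all genes were, and 1, Egr1, was higher, where 24.4% were. The 7 included all 6 FOS and JUN genes, and the median over the 9 was -0.76 against -0.01 over all genes. Wild-type vehicle library 3 had the highest value of its group for each of the 9. In that group the summed CPM of the 10 members ran from 31.4 to 55.2. Without library 3 the calls for Junb and Egr2 ended, and the other calls of this comparison stayed. With IFNg the lines differed for Atf3 and Egr1, which were higher (25.7% of all genes), and for Fosb, which was lower (27.4%). With Pam3CSK4, Jun, Atf3 and Egr1 were higher (32.1%) and Fos, Fosb, Fosl2 and Egr2 were lower (33.5%). With both, Fos, Jun, Atf3 and Egr1 were higher (30.5%) and Fosb and Fosl2 lower (29.7%). Counted in either direction, 53.7%, 53.1%, 65.6% and 60.2% of all genes differed between lines with vehicle, IFNg, Pam3CSK4 and both, so that 3, 7 and 6 of 9 members in the treated conditions can be read against a background of that size. With only the vehicle groups in the fit, the calls for Egr1 (0.43 with an adjusted p of 0.108), Egr2 (-0.25 with an adjusted p of 0.109) and Junb (-0.74 with an adjusted p of 0.0734) ended, leaving 5.

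Against vehicle in the wild-type line, IFNg raised 2 members (17.8% of all genes rose) and lowered 3 (17.6% fell), Pam3CSK4 raised 1 (10.4%) and lowered 3 (11.7%), and both agonists raised 3 (21.2%) and lowered 3 (22.4%). Those lowered were Fos, Fosb and Jun in each case. In the mutant line, IFNg raised 5 (18.3%) and lowered 1 (14.9%), Pam3CSK4 raised 4 (11.5%) and lowered 3 (12.8%), and both raised 6 (23.7%) and lowered 2 (20.1%). Fosb fell in each of these too, and with both agonists the members that rose were Jun, Junb, Jund, Atf3, Egr1 and Egr2.

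The response to IFNg differed between lines for few genes, 0.827% of them with a higher and 0.82% with a lower value in the mutant line, and 3 of the 9 members, Fos, Jun and Egr1, were among the higher. For Pam3CSK4 the higher differences were Jun, Junb, Jund and Atf3 (4 of 9, against 14.3% of all genes), where 12.3% of all genes were lower. For both agonists they were Fos, Jun, Jund and Egr1 (4 of 9, against 8.8%), with Fosb lower (6.99%). The median over the members was 0.97, 0.50 and 1.05, and over all genes it lay within 0.03 of 0. All 3 differences of response subtract the same difference between lines with vehicle, whose median over the members was -0.76, so they are not independent. In level, Jund differed between lines by test only with vehicle, and Fos and Jun did not differ by test with IFNg. Departures from additivity were called for 1 member in each line, Jun in wild-type (0.343% of all genes higher, 0.249% lower) and Fos in mutant cells (1.39% higher, 0.471% lower). In wild-type libraries Atf3 (1.97 ± 0.57, adjusted p = 0.0872) and Junb (1.06 ± 0.33, adjusted p = 0.11) did not pass. Both passed without wild-type vehicle library 2, at 2.42 with an adjusted p of 0.00433 and 1.26 with an adjusted p of 0.0316. With only the groups concerned in the fit, the IFNg count fell to 1, since the calls for Egr1 (0.97 with an adjusted p of 0.0807) and Jun (0.72 with an adjusted p of 0.0984) ended, and the Pam3CSK4 count fell to 2. The IFNg count rose to 6 without wild-type vehicle library 2. The Pam3CSK4 count fell to 2 without wild-type vehicle library 4, wild-type Pam3CSK4 library 3, mutant vehicle library 4 or mutant Pam3CSK4 library 3. The shares of all genes given above belong to the fit on all libraries, so they are not the background of these reduced runs.

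The genes whose pattern over the 8 groups was nearest to each member's were found by the root mean square difference of centred log2 CPM means, among 8877 named genes with a mean of at least 5 CPM. For Atf3 they were Gbp7, Irgm1 and Irgm2, interferon-induced GTPases, at 0.587, 0.608 and 0.731. For Egr2 they were Cd274, which encodes PD-L1, Ube2l6 and Pim1, at 0.235, 0.253 and 0.278. For Egr1 they were Homer1, Clec2d and Ccnd2, at 0.177, 0.203 and 0.207. Fos and Fosb had no gene closer than 0.452 (Pagr1a) and 0.589 (Lurap1), where the members' own root mean square deviations from their means were 0.678 and 1.17. For Jun, Junb, Jund and Fosl2 the nearest were Zfp930, Pim3, Clec5a and Pml, at 0.160, 0.183, 0.181 and 0.0978. Among the members themselves the closest pair was Junb and Jund, at 0.437. That distance is above Junb's own root mean square deviation from its mean (0.393) and below Jund's (0.486), so the pair is not closely alike.

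The co-repressors that bind EGR proteins rose as well. Nab1 and Nab2, the 2 of 4 listed EGR partners with enough counts, rose in all 6 treatment comparisons, where 10.4% to 23.7% of all genes rose. Their medians were 0.56 and 0.95 under IFNg in wild-type and mutant libraries, against all-gene medians within 0.03 of 0. With 2 genes tested, these counts are not read as a result about the list. Nab2 stood at 6.22 ± 0.534, 9.91 ± 0.888, 8.15 ± 0.506 and 14.1 ± 0.913 CPM in wild-type libraries with vehicle, IFNg, Pam3CSK4 and both, and at 7.02 ± 0.525, 19.1 ± 0.681, 12.7 ± 0.272 and 27.7 ± 0.599 in mutant ones (SD, n = 4). The Nab2 response was larger in the mutant line by 0.77 ± 0.09 for IFNg, 0.46 ± 0.09 for Pam3CSK4 and 0.79 ± 0.09 for both (adjusted p = 7.78e-07, 0.000429 and 5.76e-08). Nab2 overlaps the more abundant Stat6 and Nemp1 on the opposite strand, so its reads may be shared with theirs.

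Of 20 other bZIP genes that can pair with or compete with the members, 15 were tested. IFNg raised 8 and lowered 2 in wild-type and raised 8 and lowered 1 in mutant libraries, where 17.8% and 18.3% of all genes rose and 17.6% and 14.9% fell. Both agonists raised 9 and lowered 2 in wild-type and raised 10 and lowered 2 in mutant libraries, where 21.2% and 23.7% of all genes rose and 22.4% and 20.1% fell. The medians under IFNg were 0.10 and 0.26. Batf2, an interferon-induced AP-1 partner, went from 0.0120 ± 0.0240 to 2.69 ± 0.486 CPM with IFNg in wild-type and from 0.188 ± 0.0606 to 12.7 ± 0.943 in mutant libraries. Maff, a small MAF protein, rose by 1.51 ± 0.09 and 1.56 ± 0.09 (adjusted p = 9.96e-16 and 1.93e-16). Batf was higher in mutant libraries in all 4 conditions, by 1.13 ± 0.11 with vehicle (adjusted p = 3.04e-11). The FOS-family gene Fosl1, which is not among the 10 members, was lower in all 4, at -1.53 ± 0.15 with vehicle (adjusted p = 6.96e-11). Batf2 overlaps Arl2 and Fosl1 overlaps Ccdc85b on the opposite strand, so their reads are uncertain in the same way.

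Of the 7 SRF and ternary complex factor genes, which act through the CArG box, 6 were tested. IFNg raised 1 and lowered 2 in wild-type and raised 2 and lowered 2 in mutant libraries, with medians of -0.08 and -0.05. Over all genes, 17.8% and 18.3% rose with IFNg and 17.6% and 14.9% fell. With 6 genes tested, these counts are not read as a result about the list. All 23 MAP kinase cascade genes were tested, of which Pam3CSK4 raised 2 and lowered 2 in wild-type and raised 4 and lowered 4 in mutant libraries, near the 10.4% and 11.5% of all genes that rose and the 11.7% and 12.8% that fell. The medians were 0.04 and -0.000456. Those raised in both lines included Mapkapk2, a kinase downstream of p38, by 0.34 ± 0.04 and 0.64 ± 0.04 (adjusted p = 1.19e-08 and 2.58e-16), and Map3k8, which links Toll-like receptors to ERK, at 0.178 ± 0.0401 and 1.21 ± 0.185 CPM against 0.0144 ± 0.0171 and 0.120 ± 0.0379 with vehicle.

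Of 30 other immediate-early genes, 26 were tested, and IFNg raised 10 and lowered 4 in wild-type and raised 12 and lowered 4 in mutant libraries, with medians of 0.13 and 0.37. The 4 lowered are near the share of all genes that fell, 17.6% in wild-type and 14.9% in mutant libraries, and the share that rose was 17.8% and 18.3%. Zfp36, which encodes an mRNA-decay factor, rose with IFNg by 1.54 ± 0.10 and 1.92 ± 0.09 (adjusted p = 4.29e-15 and 1.16e-18), while Dusp1, a MAP kinase phosphatase, fell by 0.99 and 0.87 on the log2 scale. Nfil3, another bZIP repressor, had a larger response in the mutant line for each treatment, by 0.81 ± 0.09, 0.85 ± 0.09 and 1.26 ± 0.09 for IFNg, Pam3CSK4 and both (adjusted p = 1.54e-07, 1.44e-08 and 3.25e-13).

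Atf3 is also a target of the integrated stress response, and 16 genes of that pathway were all tested. In unstimulated mutant cells 12 were lower and 1 higher, where 29.3% of all genes were lower and 24.4% higher, with a median of -0.46 against -0.01 over all genes. Among the lower were Nupr1, a stress-induced chromatin protein, at -2.02 ± 0.08 and the cystine transporter gene Slc7a11 at -1.75 ± 0.05 (adjusted p = 5.74e-21 and 1.49e-25). Both agonists raised 7 and lowered 3 in wild-type and raised 11 and lowered 3 in mutant libraries, with medians of 0.02 and 0.31. Over all genes, 21.2% and 23.7% rose and 22.4% and 20.1% fell. Trib3, a pseudokinase of this pathway, rose by 0.54 ± 0.11 and 1.75 ± 0.12 (adjusted p = 0.000195 and 9.56e-15). Of the 8 heat shock genes, 7 were tested, and both agonists raised 3 in each line, with medians of 0.13 and 0.17.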

How the data were processed

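RNA from 32 libraries (TruSeq stranded total RNA, per the labels' protocols) was analysed from the deposited gene tables. Per the submitters' processing notes, the authors aligned reads with STAR 2.5.2b to mm10 and made estimated counts with RSEM 1.3.0; annotation release and strand setting: not given in the sources used here. Of the non-zero expected counts the authors deposited, 11.1% were not whole, and all were rounded. The TPM and effective lengths, as deposited, were used only for levels per kilobase. Symbols and coordinates came from GENCODE vM21 (55394 of 55487 identifiers matched, version ignored), and promoters from RefSeq GRCm38.p6. Counts were fitted with edgeR 4.0.16 (R 4.3.3; filterByExpr, TMM, robust glmQLFit, 1 fit of 8 groups, 24 residual degrees of freedom), and DESeq2 1.42.0 was an alternative, with others for scaling, filtering, a replicate block, a structural RNA covariate and left-out libraries. Here 14869 genes were tested and 40618 removed, and no library pair was identical. Egr3 was removed by the filter. The script was tested on simulated data. The genes named from lists were the members, the 3 nearest genes of each member, and from each list, per comparison described, the called genes of largest change (at most 3 higher and 3 lower) with at least 1 CPM in a group. The members and lists were chosen with earlier results of these data known.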

Additional observations from a re-analysis of the deposited data

Results flagged for a closer look

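In 5 of 72 groups of 4 libraries a single library stood far from the other 3 (gap over range above Dixon's 95% critical value), where chance gives about 1 in 20. Fos read 1.77 CPM in wild-type IFNg library 3, below 2.14 to 2.16 in the others of its group. Fosb read 0.633 in wild-type IFNg library 2, above 0.500 to 0.518, and Fosl2 read 6.17 in the same library, below 7.24 to 7.34. Atf3 read 9.35 in wild-type combination library 4, above 7.18 to 7.38. Egr1 read 3.14 in mutant Pam3CSK4 library 4, below 3.75 to 3.82.

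The response to a treatment differed between the lines by edgeR's quasi-likelihood test of the difference (mutant minus wild-type log2 response) in 12 cases. For IFNg these were Fos at 1.04 ± 0.20 (adjusted p = 0.00252), Egr1 at 0.97 ± 0.20 (adjusted p = 0.00452) and Jun at 0.72 ± 0.18 (adjusted p = 0.0309). For Pam3CSK4 they were Jun at 1.66 ± 0.18 (adjusted p = 3.14e-08), Jund at 1.93 ± 0.38 (adjusted p = 0.000579), Atf3 at 1.91 ± 0.66 (adjusted p = 0.0312) and Junb at 0.96 ± 0.34 (adjusted p = 0.0372). For both agonists they were Fos at 1.79 ± 0.21 (adjusted p = 1.52e-07), Jun at 1.63 ± 0.18 (adjusted p = 3.36e-08), Egr1 at 1.05 ± 0.20 (adjusted p = 0.000264), Jund at 1.58 ± 0.38 (adjusted p = 0.00548) and Fosb at -1.29 ± 0.44 (adjusted p = 0.0431). All of these cases share the vehicle libraries of both lines, so they are not independent.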

How the results depend on the processing

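No value of a member that was called changed sign under any alternative run. Of 74 calls in 135 tests, 74 were kept with DESeq2, 73 with RLE size factors, 72 with the replicate block, 71 with no low-count filter, 64 with the structural RNA covariate and 64 with only the groups of each comparison in the fit, and 30 of the 36 calls that use wild-type vehicle were kept without wild-type vehicle libraries 1 and 4. With only the groups compared, 5 members rather than 8 differed between unstimulated lines, 1 rather than 3 in the IFNg response and 2 rather than 4 in the Pam3CSK4 response, which was also 2 with the covariate. Wild-type non-additivity, called for 1 member, was called for 0 with the covariate, 0 with only its groups and 3 with DESeq2. Leaving out 1 library at a time gave 2 to 6 members for the IFNg difference, 2 to 5 for the Pam3CSK4 difference and 0 to 3 for wild-type non-additivity, and changed 27 of the 135 tests, ending 12 calls and adding 15. The shares of all genes set beside member counts in the Results are those of the fit on all libraries.

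Same-numbered libraries did not deviate together (mean correlation -0.0046, with 5 of 112 pairs over 0.1 and 7 of 32 libraries closest to their own number), so the numbers were not used to pair them. The replicate block ended 2 calls, Junb for the Pam3CSK4 difference (0.93, adjusted p = 0.0544) and Fosb for the difference with both agonists (-1.30, adjusted p = 0.0532). Over all genes, the wild-type Pam3CSK4 response fell from 3277 to 176 called genes with the covariate (1.18% of those tested), to 724 without wild-type vehicle libraries 1 and 4 and to 1971 with only its groups. With the covariate the wild-type count fell from 5265 to 2794 for IFNg and from 6491 to 3638 for both, the genotype difference from 3956 to 1213 for Pam3CSK4 and from 2347 to 1380 for both, and non-additivity from 88 to 42 in wild-type, while it rose from 276 to 422 in mutant libraries. The Pam3CSK4 difference was 2545 without wild-type vehicle libraries 1 and 4. The IFNg difference of 245 was 128 with only its groups and 406 with DESeq2. Wild-type non-additivity of 88 was 22 without those libraries, 135 with only its groups, 172 with no filter and 486 with DESeq2. The cause of these changes was not tested. Depth limits Egr3, with 44 counts in all, and the vehicle levels of Atf3, with 24 and 29 counts per group.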

Other observations

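Mapk7, which encodes the kinase ERK5 and belongs to the MAP kinase list above, had no count in any of the 16 wild-type libraries. In the mutant line it had 521, 489, 468 and 488 counts with vehicle, IFNg, Pam3CSK4 and both, or 2.30 ± 0.438, 2.13 ± 0.386, 2.21 ± 0.143 and 2.12 ± 0.202 CPM (SD, n = 4). Against a floor of 3 counts over the wild-type group it was at least 161-fold higher with vehicle, 177-fold with IFNg, 171-fold with Pam3CSK4, and 168-fold under both.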
